A study of Quercus robur with 12 samples.

Results

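The response of lateral root tips to drought stress was examined in the small RNA counts of 6 of the 12 libraries of the series, 3 from lateral roots under drought stress (LR-DS) and 3 from lateral roots under control conditions (LR-CT). All 75 miRNAs of the deposited table were followed, 51 of them known miRNAs from 23 families and 24 identified in the table by a sequence in place of a family name. The plants were seedlings of pedunculate oak (*Quercus robur*) grown in rhizotrons, which are flat growth boxes with a transparent wall, and acclimatized for 8 weeks. LR-DS seedlings were then kept for 4 weeks at 25% of the soil moisture of the controls, and LR-CT seedlings were watered fully. Each replicate pooled 10 to 15 root tips, and the lateral root tips were those emerging from the taproot. The study sampled seedlings raised in containers as well as seedlings sown directly, and since the labels do not give this for a library, the way of raising the plants and the watering cannot be told apart. The table holds miRNAs only, so the root tip identity of the libraries could not be checked against marker genes, and a lower level in such bulk samples can come from fewer cells of a type or from less RNA per cell.

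MiRNAs are short RNAs that guide an Argonaute protein to mRNAs of complementary sequence, which are then cut or kept from translation. In plants the pairing covers nearly the whole miRNA, and the families shared between species mostly target transcription factors or components of hormone signalling. In root tips these include the HD-ZIP III factors that pattern the vascular tissue (miR166), GRAS factors of the meristem (miR171), auxin receptors (miR393) and auxin response factors (miR160 and miR167).

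The sequences of the miRNAs on which the results turn are shown first, 5′ to 3′, with bases 2 to 8, the seed, in capitals. Those of the known miRNAs were listed by family in the study's degradome table, a list of mRNA cleavage sites. They could be given to a member only where the table holds 1 member and the list 1 sequence, and the others stand for the family. Sequence 1 of miR156, of miR171 and of miR393 was listed too and is not shown. Those of miR171 and miR393 have other seeds than the sequences shown. Which sequence miR171c, miR171d or miR393a carries is therefore not known here.

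miR171 family, sequence 2: cGUGAUAUugauuuggcucuuc
miR171 family, sequence 3: uGUGAUAUugguacggcucguc
seq-CGUGAUA: cGUGAUAUugguucggcucuuc
miR166 family, sequence 1: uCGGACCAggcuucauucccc
miR166 family, sequence 2: uCUCGGACcaggcuucauucc
miR393 family, sequence 2: uCCAAAGGgaucgcauugauuu
miR390 family: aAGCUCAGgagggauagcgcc
miR162a: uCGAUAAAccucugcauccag
miR159a: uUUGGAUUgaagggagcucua
miR319a: uUGGACUGaagggagcuccc
miR156 family, sequence 2: uGACAGAAgagagugagc
miR2111a: uAAUCUGCauccugaggucua

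The sequence-named miRNA seq-CGUGAUA shares its seed with both miR171 sequences shown. It differs from sequence 2 at 2 positions counted from the 5′ end, G11A and C14U, where the first letter is the base of seq-CGUGAUA. Whether seq-CGUGAUA or the miR171 sequences shown pair with mRNAs of GRAS factors was not tested. The other sequence-named miRNAs that passed the test below, and those close to them in sequence, are called seq here, followed by their first 7 bases.

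seq-CCGGUCU: cCGGUCUGcucguccc
seq-UCGGUAA(G): uCGGUAAUgauuuuguggaguc
seq-UCGGUAA(C): uCGGUAAUgauuuucuggaguc
seq-CUUCUGU_1 and seq-CUUCUGU_2: cUUCUGUUagcucuuaugga
seq-ACUAUUG: aCUAUUGUggagcaccugcuc
seq-UUUCAGA: uUUCAGAAugagaggcaaguc
seq-UUAGAUU: uUAGAUUCacgcacaaacucu
seq-UUUUAAG: uUUUAAGAacucuauaggauc
seq-UUAGUCC: uUAGUCCAagacucggccaca
seq-UUGCCGA: uUGCCGAAuccgcccauuccua
seq-UUUGGAA: uUUGGAAAcgcacuugaaucg

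Of the 24 sequence-named miRNAs, 14 had 21 nt, 7 had 22 nt and 2 had 20 nt, and 15 began with U. The exception in length was seq-CCGGUCU with 16 nt, shorter than the size range that the library protocol enriched. How complementary a plant target site is can be seen from 2 sites of miR166 sequence 1, in transcripts that the study annotates as ATHB-15 (Qrob_T0357230.2) and REVOLUTA (Qrob_T0602040.2), both HD-ZIP III factors. The bases opposite the seed are in capitals.

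ATHB-15 site: cuggaaugaagccUGGUCCGg
REVOLUTA site: cugggaugaagccUGGUCCGg

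In both sites all 7 bases opposite the seed pair with it. Over the whole length of 21 nt, 18 bases of the ATHB-15 site and 17 of the REVOLUTA site form Watson-Crick pairs.

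The libraries differed in depth and in what the counts were made of. The counts summed to 902505, 864103 and 160039 in the LR-DS libraries and to 764615, 845480 and 1057196 in the LR-CT libraries. The 16-nt sequence seq-CCGGUCU took 86.2% (95% Wilson interval 86.1% to 86.3%), 86.0% (86.0% to 86.1%) and 83.7% (83.5% to 83.9%) of the counts in LR-DS, against 60.6% (60.5% to 60.8%), 34.1% (34.0% to 34.2%) and 47.9% (47.8% to 48.0%) in LR-CT. Whether it is a miRNA was not tested. The other 74 miRNAs were left with 124387, 120543 and 26087 counts in LR-DS and with 300906, 557180 and 550694 counts in LR-CT, so every LR-DS library was measured at lower effective depth than every LR-CT library. The intervals and floors given here describe counting error alone, because the reads carry no molecular identifiers.

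Among those other 74 miRNAs, miR159a, which restrains MYB transcription factors, was the most abundant on average in LR-CT. It made up 20.9%, 20.3% and 16.8% of their counts in LR-DS (mean 19.3% ± 2.26, SD, n = 3), against 30.0% to 45.7% in LR-CT (38.6% ± 7.94, SD, n = 3), with no overlap. The miR166 family took 43.3% and 43.9% of these counts in LR-DS replicates 1 and 2 but 17.8% (95% Wilson interval 17.3% to 18.3%) in LR-DS replicate 3, against 23.0%, 17.5% and 18.4% in LR-CT. The known families other than miR159 and miR166 held 15.2%, 16.3% and 13.7% in LR-DS, above the 8.97%, 8.87% and 9.28% of LR-CT. The sequence-named miRNAs without seq-CCGGUCU held 20.6%, 19.5% and 51.8% in LR-DS, the last value belonging to LR-DS replicate 3, and 38.1%, 27.9% and 32.3% in LR-CT. LR-DS replicate 3 therefore stood apart from the other LR-DS libraries in depth and in makeup. Within a group, no library was a repeat of another. Chi-square per degree of freedom, with the 16-nt sequence included, was 25.2 or more for every pair of replicates, far above sampling noise. Libraries of different groups were not compared in this way.

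**Figure D1:**
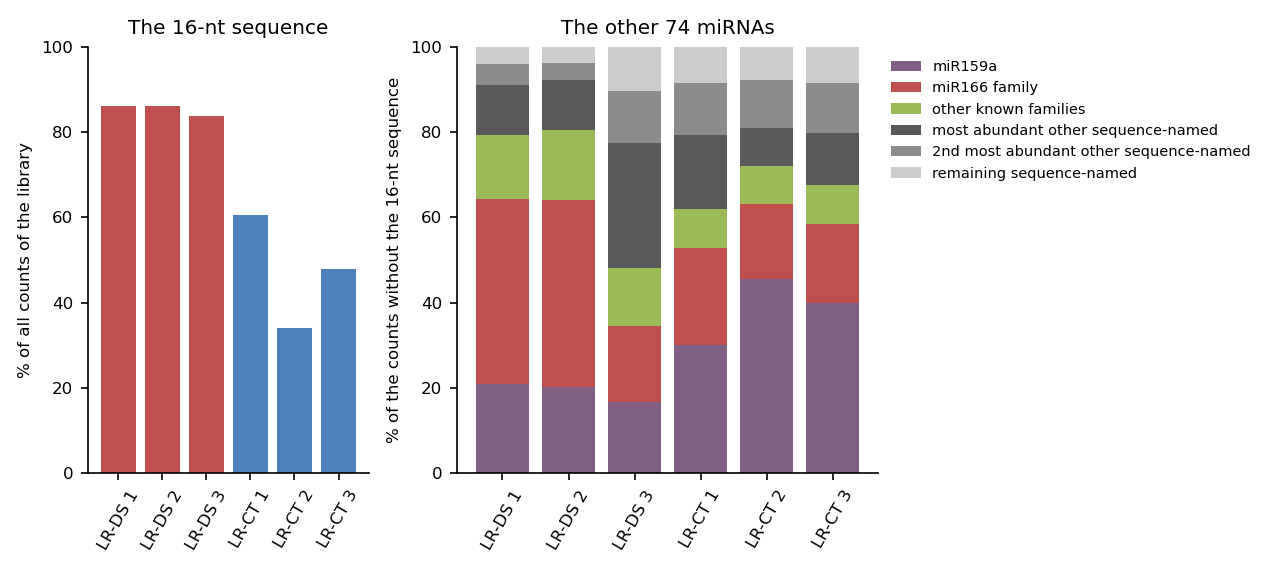
Left, the share of all counts of a library taken by the 16-nt sequence (%), by library, with LR-DS in red and LR-CT in blue; right, the makeup of the counts of the other 74 miRNAs (%), as stacked bars. The 16-nt sequence lies between 83.7% and 86.2% in LR-DS and between 34.1% and 60.6% in LR-CT, and the miR166 part of LR-DS replicate 3 is 17.8%, against 43.3% and 43.9% in the other LR-DS libraries.

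The main comparison asked which miRNAs of lateral root tips differ between drought stress and control. Counts were scaled by TMM factors, which bring the bulk of the miRNAs to the same level, and the test was the quasi-likelihood test of edgeR. A log2FC compares LR-DS with LR-CT, and an FDR is a p-value adjusted over all 75 miRNAs by the Benjamini-Hochberg method. At an FDR of 0.05, 24 of the 75 passed (32.0%). In LR-DS 7 were higher (9.33%) and 17 lower (22.7%). The 13 known miRNAs among them were divided nearly evenly, 6 higher and 7 lower, while 10 of the 11 sequence-named ones were lower. The labels name the replicates as biological replicates. The p-values set the difference between groups against the spread between these pooled samples, which edgeR estimates with information from all miRNAs.

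In LR-DS the scaled levels of miR171d, miR393a, miR166c, miR162a and miR166a rose, and those of miR156a, miR2111a, miR166f, miR171c, miR319a, miR159a and miR390a fell. The groups did not overlap in 23 of the 24, the exception being miR395b. Over all 75 miRNAs, the groups did not overlap in 35 (46.7%), 11 higher and 24 lower in LR-DS. An exact permutation test on 3 against 3 libraries has 20 arrangements and cannot go below a two-sided p of 0.1.

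How many miRNAs counted as higher or lower depended on the scaling. Scaled by library size alone, 2 were higher and 33 lower, and the median log2FC of all miRNAs shifted by -1.16. Scaled by the counts without the 16-nt sequence, 14 were higher and 9 lower, with a shift of 0.64. RLE factors, another scaling, shifted the median by 0.25. All 24 kept their sign under each of these. Under TMM, RLE factors, library size alone and library size without the 16-nt sequence alike, 11 passed, the higher ones being miR171d and miR393a and the lower ones miR156a, miR166f, miR171c, miR2111a, seq-UCGGUAA(G), seq-CUUCUGU_2, seq-ACUAUUG, seq-UUUCAGA and seq-UUAGAUU. With LR-CT replicate 2 left out 14 miRNAs passed, without LR-CT replicate 3 15, and without LR-DS replicate 3 32, of which 23 were among the 24. In a single edgeR fit together with the taproot libraries 0 passed, and the unadjusted p was 0.05 or less for 16. DESeq2's Wald test on the lateral root libraries called 35, 14 higher and 21 lower.

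**Figure D2:**
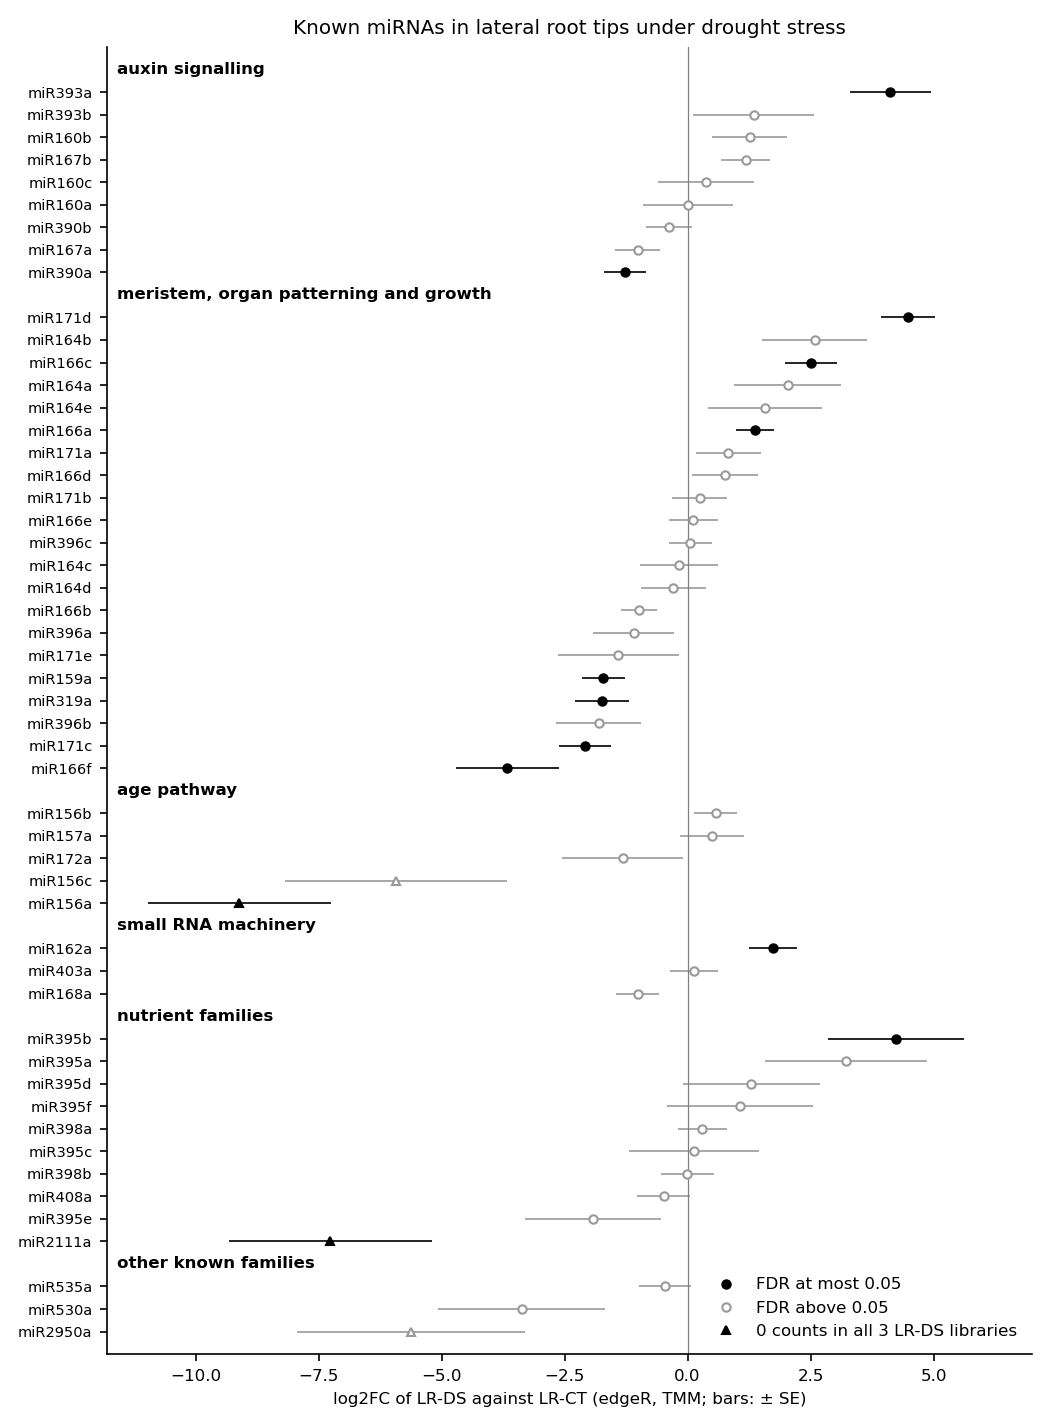
The log2FC of LR-DS against LR-CT for the 51 known miRNAs, grouped by the role of their known plant targets; bars are ± SE, filled symbols passed an FDR of 0.05, and triangles had 0 counts in all 3 LR-DS libraries, where the fitted value is no measure of the fold. The highest value, 4.47, belongs to miR171d, and within the miR166 and miR171 families filled symbols lie on both sides of 0.

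Among the miRNAs of auxin signalling, 1 of 9 rose and 1 fell, beside 9.33% higher and 22.7% lower over all 75. The median log2FC of the 9 was 0.37, against -0.29 over all 75. MiR393 targets the mRNAs of the TIR1 and AFB auxin receptors. MiR393a had 383, 259 and 63.8 CPM (the count scaled by library size and TMM factor) in LR-DS, against 13.8, 17.7 and 9.26 CPM in LR-CT. The lowest LR-DS library stood above the highest LR-CT library, with 189, 157 and 8 counts in LR-DS against 16, 23 and 14 in LR-CT, so the value of LR-DS replicate 3 rests on 8 counts. The log2FC was 4.12 ± 0.83 (SE, FDR 0.00331). Its relative miR393b had 14, 0 and 7 counts in LR-DS and 10, 12 and 17 in LR-CT, too few to place it, and the family sum gave a log2FC of 3.68 ± 0.68 (SE, FDR 0.000462).

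MiR390 starts the production of the tasiRNAs that restrain auxin response factors, and of its members only miR390a passed. MiR390a had 1927, 1334 and 2362 CPM in LR-DS and 3348, 5444 and 4749 CPM in LR-CT, a log2FC of -1.27 ± 0.43 (SE, FDR 0.0318). The call was lost without the 16-nt sequence in the library size (FDR 0.198), with the replicate number as a block (FDR 0.182) and without LR-CT replicate 3 (FDR 0.157). MiR390b had 936, 519.5 and 1229 CPM in LR-DS and 884, 1348 and 1244 CPM in LR-CT, which overlap, with a log2FC of -0.38 ± 0.47 (SE, FDR 0.559) that was 0.29 without the 16-nt sequence in the library size. The family sum did not pass (log2FC -0.84 ± 0.41, SE, FDR 0.105). The ratio of miR390b to miR390a within a library was higher in every LR-DS library, at -1.04, -1.36 and -0.94 on the log2 scale, than in any LR-CT library, at -1.92, -2.01 and -1.93.

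MiR167 and miR160 target auxin response factors. MiR167b, with 652, 628 and 455 CPM in LR-DS, stood above the 214, 298 and 257 CPM of LR-CT in every library but did not pass (log2FC 1.18 ± 0.49, SE, FDR 0.0766). It passed with RLE factors (FDR 0.0270), without the 16-nt sequence in the library size (FDR 0.00913), in DESeq2 (7.1e-05) and without LR-DS replicate 1 (FDR 0.0372), 2 (0.0485) or 3 (0.00798). MiR167a, the more abundant member, had 2145, 1666 and 3464 CPM in LR-DS and 3036, 6085 and 5564 CPM in LR-CT (log2FC -1.02 ± 0.45, SE, FDR 0.0952). The log2 ratio of miR167b to miR167a was -1.72, -1.41 and -2.92 in LR-DS and -3.82, -4.35 and -4.43 in LR-CT, so the members shifted against each other in every library although neither passed alone. MiR160b had 60.8, 90.7 and 159.6 CPM in LR-DS and 24.2, 46.2 and 56.2 CPM in LR-CT, without overlap and with an FDR of 0.218.

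Of the 21 miRNAs tied to meristem, organ patterning and growth, 3 rose and 4 fell, with a median log2FC of 0.050, beside 9.33% higher, 22.7% lower and a median of -0.29 over all 75, so the count of calls was near that of the whole table. The miR171 family, whose GRAS targets hold the meristem undifferentiated, contained the increase with the lowest FDR of the table and a decrease. MiR171d had 3081, 2678 and 1373 CPM in LR-DS and 72.5, 132 and 116 CPM in LR-CT. Its log2FC of 4.47 ± 0.55 (SE, FDR 7.95e-05) amounts to 22.2-fold. MiR171c had 379, 254 and 199.5 CPM in LR-DS and 658, 1642 and 1251 CPM in LR-CT, a log2FC of -2.08 ± 0.53 (SE, FDR 0.00891, and 0.0563 without LR-CT replicate 2). Between these, miR171a (log2FC 0.82 ± 0.66, SE) and miR171b (0.25 ± 0.56, SE) overlapped between the groups, as did miR171e, with 20, 0 and 0 counts in LR-DS and 18, 84 and 64 in LR-CT. MiR171a was carried by LR-DS replicate 3, at 5387 CPM against 1037 and 698 CPM in the other LR-DS libraries, and without that library its log2FC was -0.50.

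Within each library, the order of miR171d and miR171c was turned round. MiR171d was the more abundant in all 3 LR-DS libraries, with log2 ratios to miR171c of 3.02, 3.39 and 2.76, and the less abundant in all 3 LR-CT libraries, with -3.17, -3.63 and -3.43. The means were 3.06 ± 0.32 (SD, n = 3) in LR-DS and -3.41 ± 0.23 (SD, n = 3) in LR-CT. Such a ratio does not depend on how libraries are scaled against each other. The family sum gave a log2FC of 1.07 ± 0.41 (SE, FDR 0.0422). The sequence-named seq-CGUGAUA, which shares the seed of miR171 sequences 2 and 3, was lower like miR171c, with 346, 196 and 255 CPM in LR-DS and 582, 794 and 997 CPM in LR-CT (log2FC -1.57 ± 0.50, SE, FDR 0.0292). It lost its call without the 16-nt sequence in the library size (FDR 0.108) and without LR-CT replicate 3 (FDR 0.189).

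The miR166 family was divided as well. MiR166c had 5510.3, 3967 and 1333 CPM in LR-DS and 627, 670.2 and 616 CPM in LR-CT, a log2FC of 2.50 ± 0.53 (SE, FDR 0.00397), and miR166a had 11965, 14860.3 and 13878 CPM in LR-DS and 6361, 4764 and 4695 CPM in LR-CT (1.36 ± 0.39, SE, FDR 0.0161). Neither passed when scaled by library size alone (FDR 0.0507 for miR166c and 0.643 for miR166a), and miR166a did not without LR-CT replicate 3 (FDR 0.146). MiR166f, a rare member, had 3, 2 and 0 counts in LR-DS and 45, 79 and 80 counts in LR-CT, a log2FC of -3.66 ± 1.04 (SE, FDR 0.0161, and 0.0924 without LR-CT replicate 3). MiR166b, the most abundant member in LR-CT, had 15603, 13198 and 12545 CPM in LR-DS and 24566, 30282 and 27159.5 CPM in LR-CT, without overlap, and did not pass (log2FC -0.99 ± 0.37, SE, FDR 0.0563). MiR166d and miR166e overlapped between the groups, and both were low in LR-DS replicate 3, with 2801 CPM of miR166d there against 45365 and 34495 CPM in the other LR-DS libraries, and 13198, 19154 and 16339 CPM in LR-CT. Their log2FC values were 0.76 ± 0.67 (SE) for miR166d and 0.12 ± 0.50 (SE) for miR166e. Without LR-DS replicate 3 both passed, miR166d at 1.54 (FDR 0.00167) and miR166e at 0.75 (FDR 0.0113).

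Members of miR166 also shifted against each other within libraries, in 9 of the 15 pairs that could be formed. Many of the 9 share the rare miR166f, so the pairs are not independent. The log2 ratio of miR166c to miR166e was -2.48, -2.39 and -2.28 in LR-DS and -4.56, -4.92 and -4.88 in LR-CT, so the spread within a group was far smaller than the gap of 2.41 between the means. MiR166a and miR166b were about equal in LR-DS, with log2 ratios of -0.38, 0.17 and 0.15, while miR166a was the less abundant in LR-CT, with -1.95, -2.67 and -2.53. According to the study's text, miR166a and miR166d yield the same mature RNA from separate loci. A read of it cannot be told apart between them by sequence, and how such reads were divided was not tested. The family as a whole had a log2FC of 0.40 ± 0.42 (SE, FDR 0.448).

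Over all families, 38 pairs of members had at least 60 counts each, and in 18 of them (47.4%) the log2 ratios of the LR-DS libraries did not overlap those of LR-CT. Of these, 9 lay in miR166, 5 of 10 pairs in miR171, and 1 each in miR156, miR167, miR390 and miR396. Pairs that share a member are not independent, as with miR171d in most of these miR171 pairs. For each of the 18, the exact permutation test gave a two-sided p of 0.1, the smallest it allows. Ratios to miR156a, miR166f, miR171e and miR396b include libraries at 0 counts and depend there on the added pseudocount of 0.5. The count was 18 of 38 with a pseudocount of 2, and without LR-DS replicate 3 it was 25 of 38.

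**Figure D3:**
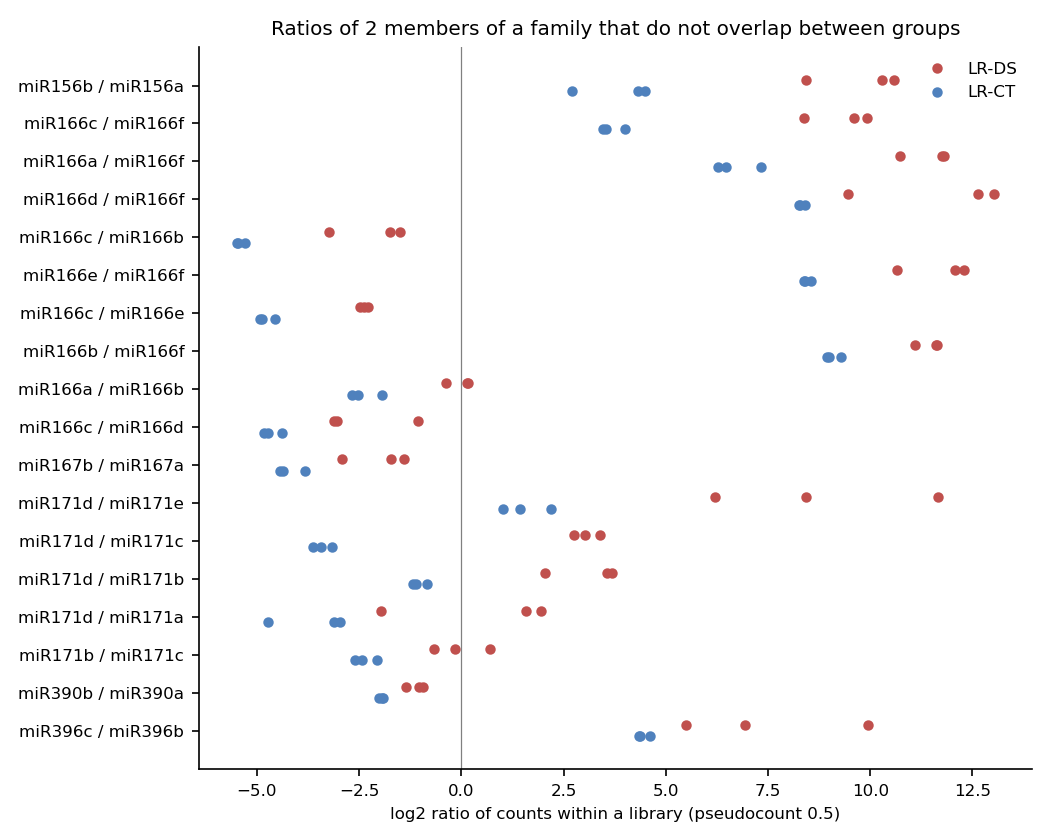
The log2 ratio of the counts of 2 members of a family within a library (pseudocount 0.5), for the 18 pairs whose 3 LR-DS libraries (red) do not overlap the 3 LR-CT libraries (blue); each point is a library. The ratio of miR171d to miR171c lies between 2.76 and 3.39 in LR-DS and between -3.63 and -3.17 in LR-CT.

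Other families of this group act on growth: miR159 on MYB factors, miR319 on TCP factors and miR396 on growth-regulating factors. MiR159a had 52774, 40339 and 34875 CPM in LR-DS and 77870.4, 195978 and 145773 CPM in LR-CT, a log2FC of -1.71 ± 0.43 (SE, FDR 0.00891). MiR319a had 139.8, 242 and 95.8 CPM in LR-DS and 462, 676 and 483 CPM in LR-CT (log2FC -1.74 ± 0.55, SE, FDR 0.0292). Every LR-DS library was below every LR-CT library for both. Without LR-DS replicate 1 neither passed (FDR 0.0679 for miR159a and 0.199 for miR319a), and both lost the call without the 16-nt sequence in the library size (FDR 0.0606 for miR159a and 0.139 for miR319a), miR319a also with RLE factors (FDR 0.0887). MiR396c, the most abundant member of its family, had 9303, 8182 and 3902 CPM in LR-DS and 4948, 8100.4 and 7617 CPM in LR-CT, with a log2FC of 0.050 ± 0.44 (SE). MiR396b had 37, 109 and 0 counts in LR-DS and 277, 517 and 469 in LR-CT, without overlap after scaling and with an FDR of 0.119, and miR396a overlapped (log2FC -1.09 ± 0.82, SE). Of the 5 members of miR164, which targets NAC factors, none passed, and miR164b, with 31, 5 and 2 counts in LR-DS and 7, 7 and 5 in LR-CT, was separate between the groups after scaling. MiR164c and miR164d had at most 178 counts in an LR-DS library and overlapped between the groups.

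In the age pathway, where miR156 and miR157 restrain SPL factors and miR172 restrains AP2-like factors, 1 of 5 miRNAs fell and none rose. Over all 75, 9.33% were higher and 22.7% lower. The median log2FC of the 5, -1.32, was the fitted value of miR172a, against a median of -0.29 over all 75. MiR156a had 0 counts in all 3 LR-DS libraries and 36, 211 and 68 counts in LR-CT. Set against a floor of 3 counts per library, it was at least 6.82-fold lower in LR-DS on average (FDR 0.00399). This limit was 3.26-fold without LR-CT replicate 2 and 14.4-fold without LR-DS replicate 3. MiR156c had 0 counts in LR-DS as well, but its 10, 7 and 18 counts in LR-CT were too close to the floor for a fold. MiR156b carried most of the family, with 1562, 1036 and 1381 CPM in LR-DS and 713, 1057 and 911 CPM in LR-CT, and overlapped between the groups (log2FC 0.57 ± 0.44, SE, FDR 0.338). MiR157a and miR172a overlapped too, miR172a with 0, 8 and 0 counts in LR-DS and 22, 13 and 21 in LR-CT. The library of 160039 counts allows a share of up to 0.00187% for a miRNA at 0 counts, whereas the deepest LR-CT library allows 0.000284%.

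Of the 3 miRNAs that act on the small RNA machinery itself, 1 rose, beside 9.33% higher and 22.7% lower over all 75. Their median log2FC was 0.13, against -0.29 over all 75. MiR162a, which targets the mRNA of DICER-LIKE1, the enzyme that cuts miRNAs out of their precursors, had 8835, 8200.4 and 2833 CPM in LR-DS and 1559, 2286 and 2145 CPM in LR-CT (log2FC 1.73 ± 0.48, SE, FDR 0.0161). The groups did not overlap, although LR-DS replicate 3 lay close to the LR-CT libraries, and with library size alone the FDR was 0.357. MiR168a, which targets AGO1, had 1189, 1263 and 774 CPM in LR-DS and 1579, 2612 and 2358 CPM in LR-CT, without overlap and short of the threshold (log2FC -1.02 ± 0.44, SE, FDR 0.0855). MiR403a, which targets AGO2, overlapped between the groups (0.13 ± 0.49, SE).

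Of the 10 miRNAs of nutrient families, 1 rose and 1 fell, beside 9.33% higher and 22.7% lower over all 75. The median log2FC was 0.21 for the 10 and -0.29 over all 75. MiR2111a, a regulator of shoot-to-root nitrogen and phosphate signalling, had 0 counts in all LR-DS libraries and 11, 45 and 33 counts in LR-CT, at least 1.89-fold lower in LR-DS against the same floor (FDR 0.0184, and 0.0729 without LR-CT replicate 2). Without LR-DS replicate 3 this limit was 3.99-fold, and without LR-CT replicate 2 it was 1.34-fold. MiR395b, of a family that responds to sulfate supply, passed with a log2FC of 4.23 ± 1.39 (SE, FDR 0.0294) on 7, 19 and 0 counts in LR-DS and 2, 1 and 0 counts in LR-CT. The groups overlapped, and the call was lost with the replicate number as a block (FDR 0.437) and without LR-CT replicate 3 (FDR 0.189). The other 5 members of miR395 had at most 14 counts in an LR-DS library and none passed. MiR398a and miR408a, of the families tied to copper supply, had log2FC values of 0.30 ± 0.50 (SE) and -0.48 ± 0.54 (SE), and miR398b had 266, 230 and 30 counts in LR-DS and 278, 680 and 613 in LR-CT. Of the remaining known families, miR530a, miR535a and miR2950a did not pass. MiR2950a had 0 counts in LR-DS and 11, 8 and 8 in LR-CT, and miR535a a log2FC of -0.46 ± 0.54 (SE).

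**Figure D4:**
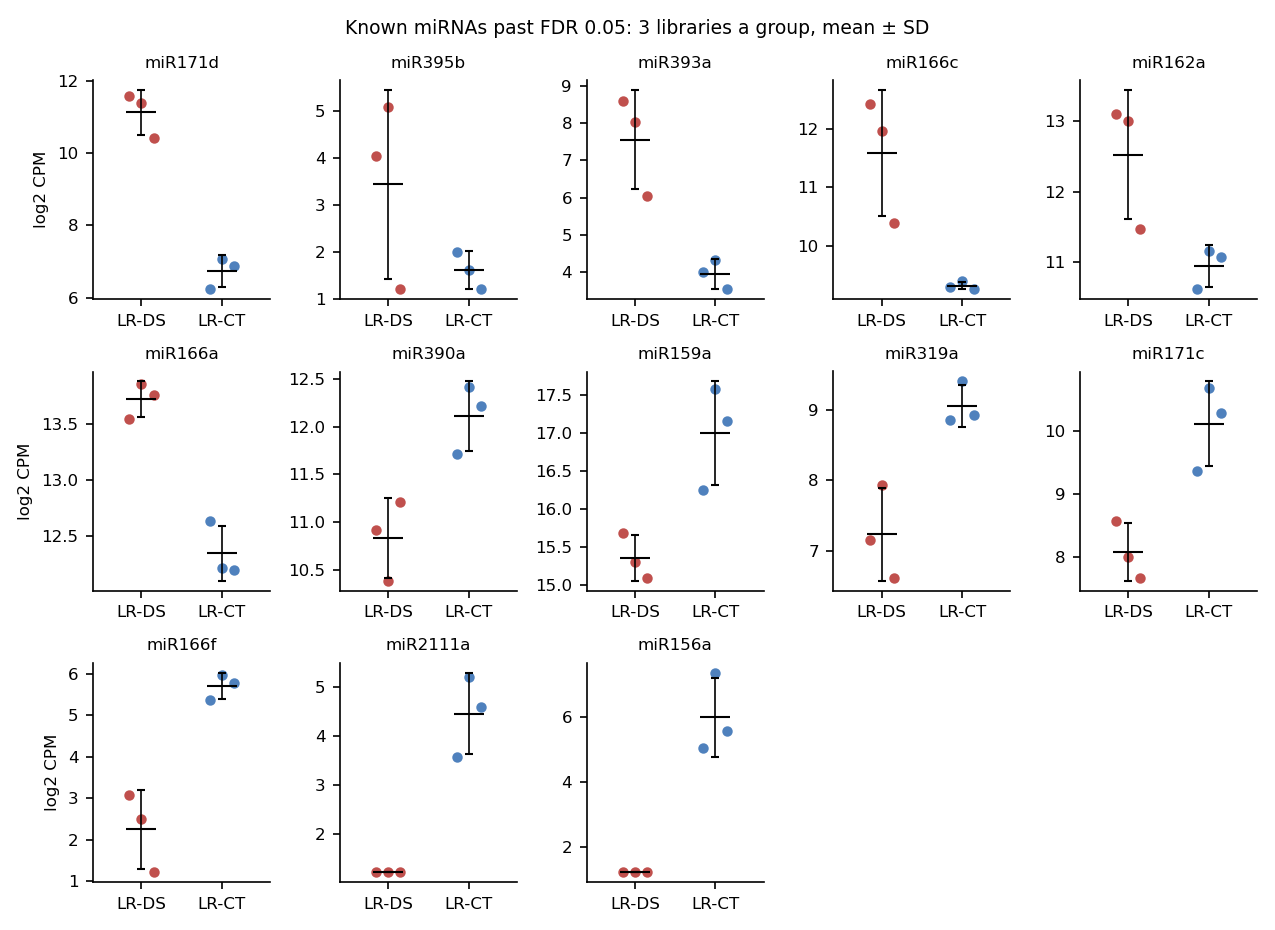
The level of each of the 13 known miRNAs that passed an FDR of 0.05, in log2 CPM (prior count 2), by library; the black bars give the mean ± SD of the 3 libraries of a group, and each panel has its own axis range. The groups overlap only for miR395b, where LR-DS replicate 3 and LR-CT replicate 3 both have 0 counts, and the LR-DS points of miR2111a and miR156a are libraries at 0 counts.

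Among the 24 sequence-named miRNAs, 1 rose and 10 fell, beside 9.33% higher and 22.7% lower over all 75 miRNAs, and the median log2FC was -1.39, beside -0.29 over all 75. The one that rose was the 16-nt sequence, at 2.02 ± 0.41 (SE, FDR 0.00331). It missed the threshold when scaled by library size alone (FDR 0.0604).

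Several of the lower ones had few counts left in LR-DS. Seq-ACUAUUG had 2, 0 and 0 counts in LR-DS and 89, 155 and 156 counts in LR-CT, a ratio of LR-CT to LR-DS of 61.7 with a 95% counting interval of 17.0 to 512 (exact binomial, FDR 0.00331 in edgeR's test). Seq-UCGGUAA(G) had 6, 12 and 5 counts in LR-DS and 266, 684 and 393 in LR-CT (log2FC -3.97 ± 0.76, SE, FDR 0.00331). Seq-UUUCAGA had 1, 12 and 0 counts in LR-DS and 130, 272 and 223 in LR-CT (-4.09 ± 0.98, SE, FDR 0.00735). In each of these the lowest LR-CT library stood far above the highest LR-DS library. Seq-CUUCUGU_2 had 6, 7 and 0 counts in LR-DS and 266, 100 and 201 in LR-CT (-3.92 ± 0.92, SE, FDR 0.00652).

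Entries with identical or nearly identical sequences could differ in whether they passed. The difference between such entries was not tested. Seq-CUUCUGU_1 and seq-CUUCUGU_2 hold the same 20 bases and are separate entries of the table. The first had 567, 329.9 and 1764 CPM in LR-DS and 686, 608 and 537 CPM in LR-CT, a log2FC of 0.53 ± 0.59 (SE) that was -0.30 without LR-DS replicate 3. A read of this sequence cannot be told apart between the entries, and how their counts were divided was not tested. Seq-CUUCUGU_1 held most of the counts, with 280, 200 and 221 in LR-DS and 795, 789 and 812 in LR-CT. The call of seq-CUUCUGU_2 is therefore that of an entry, and a fall of the sequence as a whole was not tested. Seq-UCGGUAA(G) and seq-UCGGUAA(C) differ by 1 base, G15C, outside the seed. Seq-UCGGUAA(C) had 24, 15 and 6 counts in LR-DS and 73, 381 and 7 counts in LR-CT, which overlap, and a log2FC of -1.60 ± 1.09 (SE, FDR 0.278).

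The other sequence-named miRNAs that fell follow. Seq-UUAGAUU had 294, 109 and 159.6 CPM in LR-DS and 928, 870.4 and 979 CPM in LR-CT (log2FC -2.30 ± 0.53, SE, FDR 0.00652), and seq-UUAGUCC had 2281, 1735 and 4413 CPM in LR-DS and 5930.3, 14379.9 and 11699 CPM in LR-CT (-1.93 ± 0.49, SE, FDR 0.00902). Seq-UUUGGAA, the third most abundant miRNA of LR-CT after the 16-nt sequence is left aside, had 12151, 7813 and 25705 CPM in LR-DS and 31727, 48596 and 42685 CPM in LR-CT (-1.43 ± 0.47, SE, FDR 0.0294). Seq-UUGCCGA (-1.54 ± 0.51, SE) and seq-UUUUAAG (-2.61 ± 0.86, SE) passed at an FDR of 0.0294 each. For all 5 the LR-DS libraries stayed below the LR-CT libraries on the TMM scale. As a share of the counts without the 16-nt sequence, seq-UUUGGAA took 4.82%, 3.93% and 12.3% in LR-DS against 12.2%, 11.3% and 11.7% in LR-CT, so LR-DS replicate 3 was above LR-CT there. Without the 16-nt sequence in the library size, seq-UUAGUCC (FDR 0.0606), seq-UUUGGAA (FDR 0.230), seq-UUGCCGA (FDR 0.139) and seq-UUUUAAG (FDR 0.0917) did not pass, seq-UUUUAAG also not with RLE factors (FDR 0.0725), while seq-UUAGAUU did (FDR 0.0248). Seq-AGUGGAA, the most abundant of the rest, overlapped between the groups and made up 11.7%, 11.8% and 29.2% of the counts without the 16-nt sequence in LR-DS, against 17.5%, 8.93% and 12.1% in LR-CT.

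Just above the threshold stood seq-AAAUGGG, with 3318, 2879.7 and 5977 CPM in LR-DS and 6460.3, 9799 and 10178 CPM in LR-CT (log2FC -1.12 ± 0.43, SE, FDR 0.0592), and seq-UGUGGAC, with 393, 284 and 1596 CPM in LR-DS and 328, 158 and 189 CPM in LR-CT (1.73 ± 0.67, SE, FDR 0.0592). Of these, seq-AAAUGGG was separate between the groups and seq-UGUGGAC was not. Altogether 12 miRNAs did not overlap between the groups without passing the test, 5 higher and 7 lower in LR-DS. Among the higher ones were seq-CGCAGAU (log2FC 1.16 ± 0.67, SE, FDR 0.201) and seq-UAGGAGU (1.12 ± 0.69, SE, FDR 0.223). Among the lower ones was seq-UUCAAGU (-0.81 ± 0.44, SE, FDR 0.172).

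Each LR library was left out in turn to see which calls rest on it. In all 6 fits 11 of the 24 passed, and 8 of these also passed under all 4 scalings: miR171d, miR393a, miR156a, seq-UCGGUAA(G), seq-CUUCUGU_2, seq-ACUAUUG, seq-UUUCAGA and seq-UUAGAUU. Of these, seq-CUUCUGU_2 shares its sequence with seq-CUUCUGU_1, which did not pass, so its call is that of an entry. The 24 kept their sign in every fit. The other 13 each missed the threshold without at least 1 library. Beside the values already given, this held for seq-UUGCCGA (highest FDR 0.145, without LR-CT replicate 3), seq-UUUGGAA (0.236, without LR-DS replicate 1), seq-UUAGUCC (0.0819, without LR-DS replicate 1) and seq-UUUUAAG (0.112, without LR-DS replicate 2). Calls were also gained. Beside miR166d, miR166e and miR167b, leaving out LR-DS replicate 3 brought miR156b (FDR 0.0158), miR166b (0.0460), miR167a (0.0158) and seq-AAAUGGG (0.00930) past the threshold. Without LR-CT replicate 1 seq-AAAUGGG passed (0.0451), without LR-DS replicate 2 miR168a (0.0485) and without LR-DS replicate 1 miR171e (0.0372).

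**Figure D5:**
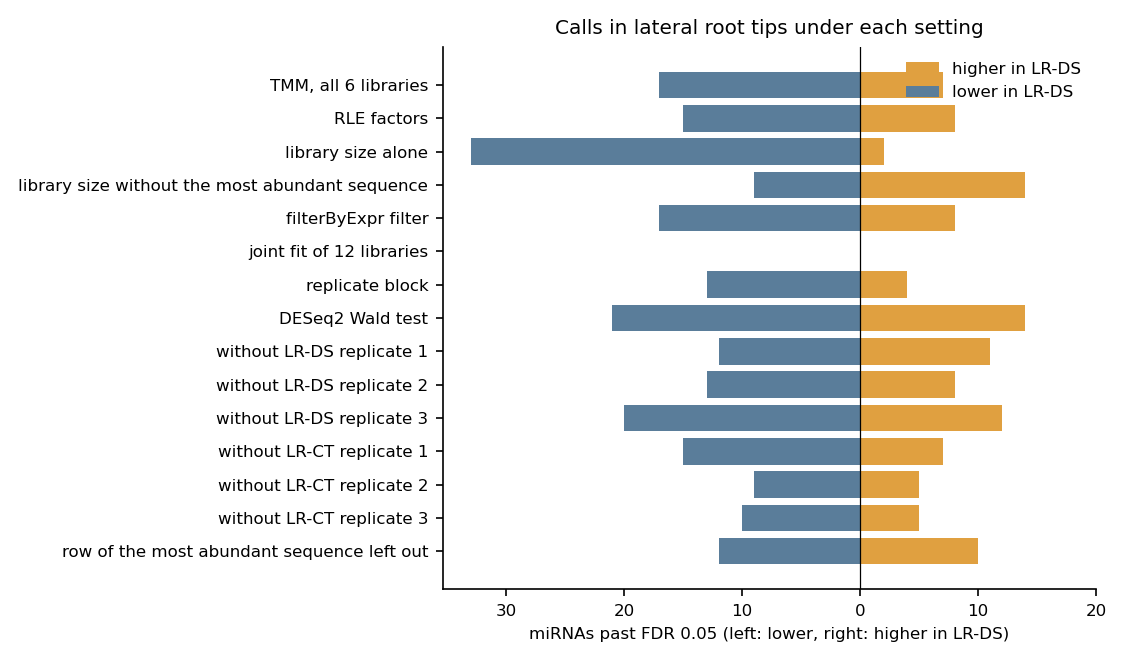
The number of miRNAs past an FDR of 0.05 under each setting, drawn to the left for those lower and to the right for those higher in LR-DS. With TMM and all 6 libraries 17 are lower and 7 higher, with library size alone 33 and 2, with the library size without the most abundant sequence 9 and 14, and in the fit of 12 libraries 0 and 0.

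Taproot tips of the same experiment served for comparison, with 3 libraries under drought stress (TR-DS) and 3 under control conditions (TR-CT). In taproots the edgeR test called 0 of the 75 miRNAs at an FDR of 0.05 (0%), and 3 had an unadjusted p under this value. With library size alone 1 was called, and with RLE factors 0. The biological coefficient of variation, the spread between replicates beyond counting noise, was 1.08 in taproots and 0.565 in lateral roots. TR-CT replicate 3 and TR-DS replicate 2 stood apart from their groups in miR171d and miR393a. MiR171d had 2115, 70 and 4435 counts in TR-DS and 41, 7 and 2804 in TR-CT, and miR393a had 94, 0 and 508 counts in TR-DS and 15, 3 and 236 in TR-CT. Whether these libraries match their labels was not tested.

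Of the 24 miRNAs that passed in lateral roots, 19 had a log2FC of the same sign in taproots, among them all 7 of the higher ones, as had 56 of all 75. The log2FC of miR171d was 1.32 ± 1.90 (SE) in taproots, that of miR393a 1.16 ± 1.95 (SE) and that of miR162a 0.82 ± 1.13 (SE). Opposite signs were found for miR156a, miR166f, miR390a, seq-UUAGUCC and seq-UUUCAGA. MiR166f had 0, 0 and 2057 counts in TR-DS and 0, 0 and 0 in TR-CT, so its taproot value came from a single library. MiR156a had 0, 0 and 123 counts in TR-DS and 15, 0 and 0 in TR-CT, so its sign in taproots rests on a single TR-DS library too. The taproot log2FC was smaller than its SE for miR390a (0.40 ± 0.88), seq-UUAGUCC (0.17 ± 1.02) and seq-UUUCAGA (0.10 ± 1.66).

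Whether lateral roots and taproots differed in their drought response was asked with an interaction term in a fit of the 12 libraries. In edgeR it reached an FDR of 0.05 for 0 of the 75 miRNAs (0%), and for 5 by the unadjusted p. MiR166f came nearest, with an FDR of 0.0979. The interaction was 2.42 ± 0.83 (SE, FDR 0.202) for the 16-nt sequence, 3.82 ± 2.25 (SE, FDR 0.656) for miR171d and 3.74 ± 2.31 (SE, FDR 0.656) for miR393a. The drought response of lateral roots was therefore not shown to differ from that of taproots for any miRNA. MiR166f passed with library size alone (FDR 0.0131), with the replicate block (FDR 2.3e-05) and without TR-DS replicate 1 (FDR 0.0185) or TR-DS replicate 2 (FDR 0.0107).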

How the data were processed

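Small RNA libraries of 12 pooled root tip samples were used, 6 of them from lateral roots. Per the study's methods, the authors removed adapters (Cutadapt), discarded reads under 15 nt, and mapped and counted the rest with ShortStack, which calls Bowtie. The deposited table gives raw counts for each mature miRNA. Tool versions and the genome build of the mapping are not given in the sources used here. Groups and replicate numbers were taken from the sample titles, since the description of the third LR-DS sample repeats the name of the second.

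Tests were run with edgeR 4.0.16 under R 4.3.3 (TMM factors, glmQLFit and glmQLFTest, 1 mean per group, all miRNAs with at least 1 count over the 6 libraries, Benjamini-Hochberg adjustment, threshold 0.05). The SE of a log2FC is the size of the log2FC divided by the square root of F. CPM values use TMM-scaled library sizes, and log2 CPM a prior count of 2. Folds of miRNAs at 0 counts were set against the mean floor of 3 counts per library. Alternatives were RLE factors, library size with and without the most abundant sequence, DESeq2 1.42.0 (Wald test, no independent filtering), filterByExpr, a fit of all 12 libraries, a replicate block, family sums, leaving out each library and, chosen after seeing the data, leaving out the row of the most abundant sequence and, for the other counts and the limits of folds, each library in turn. The fit was also run on simulated data. The outcome is not given here, and neither the calls nor the choice of scaling is judged by it. Whether TMM factors suit libraries that differ this much in the share of the most abundant sequence was not tested. Plots were made with Python 3.11.15.

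MiRNAs were named in the text when they passed the threshold, were among the 6 most abundant in LR-CT, are named in the study's miRNA results, were the highest or lowest of their list, or differ from another sequence by at most 2 bases; miRNAs whose groups did not overlap were added after their values were seen. The miRNAs and the lists were chosen with earlier results of these data known. Mature sequences of miR395 and of single members of larger families, and the study's mRNA, degradome counts and hormone data, were not analysed here.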

Additional observations from a re-analysis of the deposited data

How the results depend on the processing

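The miRNAs called in lateral roots kept their direction under every alternative that tested them singly, which left out miR395b under filterByExpr and the 16-nt sequence where its row was left out. The sums of miR171 (1.07) and miR156 (0.62) were above 0, while miR171c and miR156a were lower. In the fit of 12 libraries 0 were called, 0 higher and 0 lower, with an unadjusted p of 0.05 or less for 16. With library size alone 2 were higher and 33 lower, without the most abundant sequence in the library size 14 were higher and 9 lower, and DESeq2 called 14 higher. Leaving out each lateral root library in turn gave 14 to 32 calls, 5 to 12 higher and 9 to 20 lower. Between an LR-DS and an LR-CT library sharing a replicate number, deviations correlated at -0.253, -0.0855 and -0.0198. With 3 libraries per group, such values cannot tell whether pairing was absent, and a shared batch was not tested. With the replicate block 17 were called, of which 4 were higher, the interaction gave 1 call and taproots 2. With library size alone the interaction and taproots gave 1 call each, and leaving out each of the 12 libraries gave 0 to 1 for the interaction. Signs turned only for miRNAs that had not passed, and of these values only that of miR396c with library size alone passed (FDR 0.0397). With library size alone the log2FC was -0.53 for seq-CUUCUGU_1, -0.51 for miR166d, -1.13 for miR166e, -0.59 for miR156b, -1.15 for miR396c, -0.19 for miR171a, -0.88 for miR171b, -0.95 for miR403a and -0.91 for miR398a. Without the most abundant sequence in the library size it was 0.29 for miR390b, 0.17 for miR535a and 0.22 for miR408a, and with its row left out, an alternative chosen after seeing the data, 0.067 for miR390b and 0.040 for miR408a. With the replicate block it was -0.12 for miR166e, -0.011 for miR396c and -0.0061 for miR403a. Leaving out a library gave -2.16 to 0.24 for seq-UCGGUAA(C), -0.30 to 1.08 for seq-CUUCUGU_1, -0.54 to 0.035 for miR390b, -0.50 to 0.096 for miR535a, -0.14 to 0.63 for miR396c, -0.50 to 1.43 for miR171a, -0.23 to 0.62 for miR403a, -0.023 to 0.91 for miR398a and -0.77 to 0.16 for miR408a. The cause of these changes was not tested. Depth limits LR-DS replicate 3 most, with 26087 counts outside the 16-nt sequence.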
